A study of Mus musculus with 6 samples.

Results

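The Hox-cluster miRNA precursors are the 6 hairpins mmu-mir-10a, mmu-mir-10b, mmu-mir-196a-1, mmu-mir-196a-2, mmu-mir-196b and mmu-mir-615 (below without the prefix for mouse). They are 6 of the 855 precursors listed for mouse retina. All 6 were chosen because they are encoded between or inside the Hox genes and not for any measured value. The choice was made with earlier results of these data known. Small RNAs were sequenced at 4 weeks of age from 3 control libraries (Dicerfl/fl, iCre75-) and 3 conditional knockout libraries, called cKO (Dicerfl/fl, iCre75+). Both groups therefore carry floxed Dicer1 alleles and the mixed C57BL/6J - SJL background, and differ in the iCre75 transgene, which deletes Dicer1 in rod photoreceptors. Each library came from a pool of 6 whole retinas, so cells other than rods keep Dicer1 in both groups, and fewer cells of a type cannot be told apart from less RNA per cell. The labels do not say which mice made up a pool, and p values measure the spread between these pools. The genotype labels are taken as given, as Dicer1 mRNA was not analysed here.

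Hox genes encode homeodomain transcription factors that lie in 4 clusters and give cells along the trunk their position from head to tail. The neural retina grows out of the forebrain, ahead of the region where Hox genes are used, so miRNAs made from Hox clusters serve as positional negative markers for it. Dicer cuts miRNA hairpins to mature strands of about 22 bases, and the seed near the 5′ end of the strand picks the target mRNAs. miR-10 and miR-196 are known to act on Hox mRNAs themselves, miR-196 most clearly on Hoxb8, while miR-10 is also known from vascular endothelium and miR-615 sits in an intron of Hoxc5.

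In the mouse annotations (RefSeq GRCm38.p6 and GENCODE vM21), mir-10a lies on chromosome 11 between Hoxb5 and Hoxb4, where no other GENCODE gene overlaps it. On chromosome 2, mir-10b lies in introns of Hoxd3 and Hoxd4. The mir-196a-1 hairpin is on chromosome 11 between Hoxb13 and Hoxb9. On chromosome 15, mir-196a-2 lies between Hoxc10 and Hoxc9 within an intron of a long Hoxc5 transcript, and mir-615 lies in an intron of Hoxc5. The mir-196b hairpin is on chromosome 6, on the minus strand, within exons of Hoxa9 transcripts that GENCODE types as processed transcript and retained intron.

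The mature strands below are shown because the identity of their letters decides which precursors a read can be assigned to. They come from RefSeq (GRCm38.p6), which held all 6 precursors, and run 5′ to 3′ with the seed (bases 2 to 8) in capitals.
miR-10a-5p: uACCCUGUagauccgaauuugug
miR-10b-5p: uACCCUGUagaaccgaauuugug
miR-196a-5p: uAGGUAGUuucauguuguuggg
miR-196b-5p: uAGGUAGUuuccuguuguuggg
miR-615-3p: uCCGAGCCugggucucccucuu
miR-99a-5p: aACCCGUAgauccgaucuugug
miR-100-5p: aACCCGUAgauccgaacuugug

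miR-10a-5p and miR-10b-5p share their seed and differ by 1 substitution, U12A, counted from 1 at the 5′ end with the base of miR-10a first. Their 3p strands differ at 3 bases. The hairpins mir-196a-1 and mir-196a-2 yield the same miR-196a-5p, and miR-196b-5p has the same seed and differs by A12C. miR-615-3p shares its seed with no other mature mouse miRNA of the RefSeq table. miR-99a-5p and miR-100-5p belong to the wider miR-10 and miR-100 family but are encoded outside the Hox clusters. They differ from each other by U16A, and their seed is not that of miR-10.

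Of the 6 Hox-cluster precursors, mir-10a and mir-10b were detected in every library, mir-615 gave 1 read in each of 2 libraries, and all 3 mir-196 precursors were listed at 0 in all 6 libraries. Levels are RPKM, reads divided by the length of the precursor and by the total of the library, so none of these values shows a level per retina.

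The level of mir-10a was 187, 216 and 245 RPKM in control 1 to 3, and 172, 399.7 and 289 RPKM in cKO 1 to 3. For mir-10b it was 297, 346 and 396 RPKM in control 1 to 3, and 276, 632 and 456 RPKM in cKO 1 to 3. In both precursors cKO 1 was the lowest of the 6 libraries and cKO 2 the highest, so the groups overlapped. By mean level over the 6 libraries mir-10b ranked 229 and mir-10a ranked 261 of 855 precursors, and mir-10a held 0.00274% of all library reads.

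The cKO pools lay apart in reads as well. Worked back from the RPKM values, mir-10a had 131 reads in cKO 1, with an exact Poisson 95% interval of 110 to 155 reads, and 304 reads in cKO 2, with an interval of 271 to 340 reads. These intervals cover counting error only, since amplified reads that carry no molecular identifier can stem from the same molecule. The RPKM of mir-10a in cKO 2 was 2.32 times that in cKO 1, and for mir-10b the ratio was 2.29.

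For mir-196a-1, mir-196a-2 and mir-196b all 18 values were 0. At 5480940 to 7478237 reads per library, the limit that a count of 0 allows (3 reads) lay between 3.93 and 5.37 RPKM for mir-196a-1 and between 4.72 and 6.44 RPKM for the shorter mir-196a-2 and mir-196b. Over all 40754613 library reads the same limit is a share of 7.4e-06%. For comparison, mir-10a held 0.00189% of the reads of cKO 1, its lowest library. A read of miR-196a-5p would fit mir-196a-1 and mir-196a-2 equally, so their zeros are not separate measurements for that strand.

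The Hoxc5 intronic mir-615 was listed at 1.54 RPKM for control 3 and at 1.98 RPKM for cKO 3, which is 1 read in each, and at 0 in the other 4 libraries. The exact Poisson 95% interval of 1 read is 0.0253 to 5.57 reads. With 1 read per group, a difference between genotypes was not detectable at this depth.

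**Figure D1:**
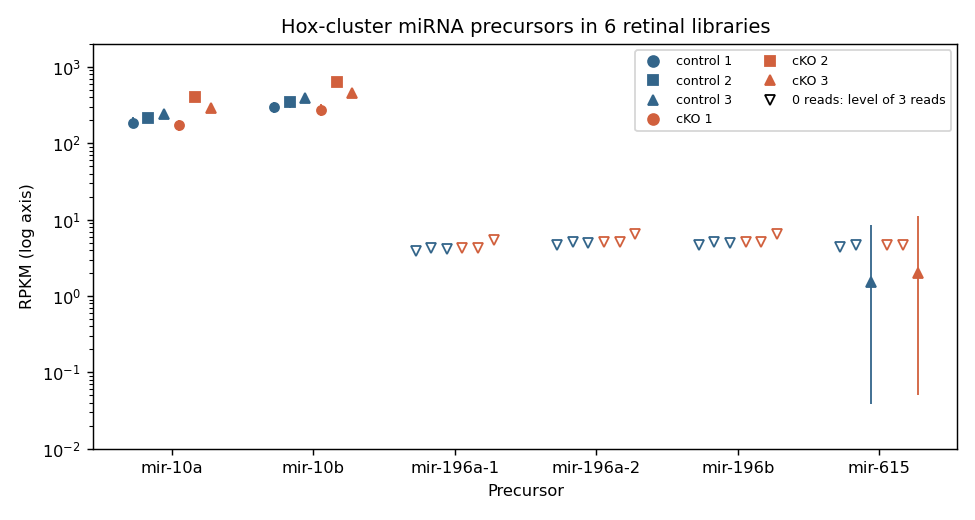
RPKM (log axis) of the 6 Hox-cluster precursors in each library, blue for control and orange for cKO, with exact Poisson 95% bars of the read count. Open triangles mark libraries with 0 reads, drawn at the level of 3 reads. The values of mir-10a and mir-10b run from 172 to 632 RPKM, whereas the mir-196 precursors have open triangles only and mir-615 has 1 read in 2 libraries.

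The deposited values did not separate mir-10a from mir-10b. In reads, mir-10a and mir-10b stood at 154 and 151 in control 1, 164 and 162 in control 2, and 190 and 190 in control 3. In cKO 1 to 3 they stood at 131 and 130, 304 and 297, and 174 and 170. Their reads thus differed by 0 to 7 per library, and mir-10b had at least 97.7% of the reads of mir-10a in each.

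The higher RPKM of mir-10b follows from its shorter hairpin of 68 bases against 110 bases. The RPKM ratio of mir-10b to mir-10a was 1.60 ± 0.0159 (SD, n = 3) over the control pools and 1.59 ± 0.0144 (SD, n = 3) over the cKO pools, while the ratio of hairpin lengths is 1.62. The log2 ratio did not differ beyond its spread between genotypes (cKO minus control -0.011, exact two-sided permutation p = 0.5, where 0.1 is the smallest possible). As both precursors had nearly the same reads, this test says little about genotype. Reads summed over all precursors came to 1.55 to 1.86 times the library totals, so reads were counted at more than 1 precursor. How many of the mir-10 reads are the same reads was not tested, and the changes of mir-10a and mir-10b below are not separate measurements.

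A pair of relatives with 1 substitution, mir-99a and mir-100, also had similar reads. In reads mir-99a and mir-100 stood at 1917 and 1857 in control 1 and at 4929 and 4768 in cKO 1, and mir-100 had 95.9% to 97.0% of the reads of mir-99a over the 6 libraries. Without gaps, miR-100-5p fits the mir-10a hairpin with no fewer than 3 mismatches and miR-99a-5p with no fewer than 4. The level of mir-100 was 3104, 4805 and 5651 RPKM in control 1 to 3 and 8606, 8694 and 10206 RPKM in cKO 1 to 3. Its groups did not overlap, which held for 73.5% of all 461 tested precursors, while those of mir-10a did. Whether reads of miR-100 are counted at mir-10a was not tested.

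**Figure D2:**
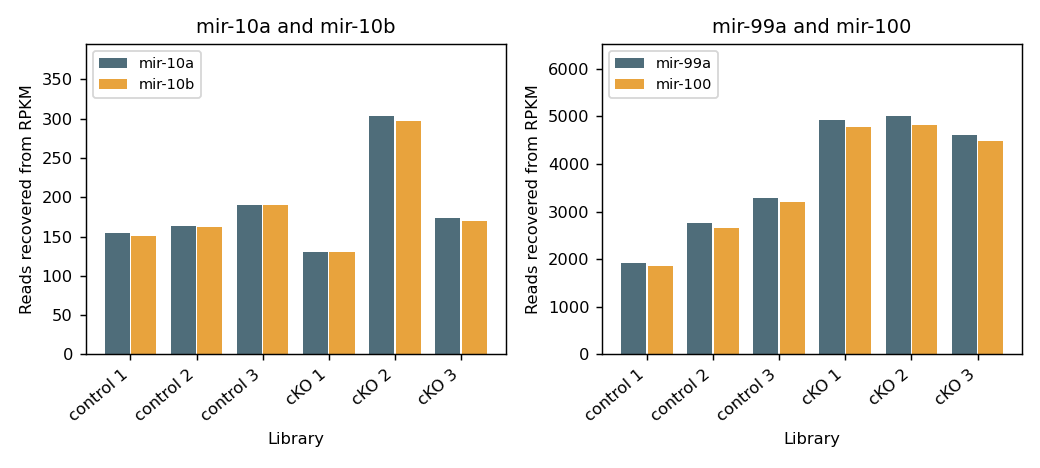
Reads recovered from the RPKM values, per library, for mir-10a beside mir-10b (left) and mir-99a beside mir-100 (right). In every library both bars of a pair are of nearly equal height, with differences of 0 to 7 reads on the left and 60 to 205 reads on the right.

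The comparison of cKO with control retina asks how these precursors change when rods lose Dicer1. For mir-10a the mean was 216 ± 28.7 RPKM (SD, n = 3) over the control pools and 287 ± 114 RPKM (SD, n = 3) over the cKO pools. The log2 fold change was 0.33 with a SE of 0.27 (limma, adjusted p = 0.28). For mir-10b the means were 346 ± 49.4 and 455 ± 178 RPKM (SD, n = 3 each), and the log2 fold change was 0.32 with a SE of 0.27 (limma, adjusted p = 0.29). Neither passed the threshold of 0.05.

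With 4 members below the filter of a mean of 10 RPKM, 0 of the 2 tested Hox-cluster precursors were called, and 0 of the 2 had an unadjusted p under 0.05. Over all 461 tested precursors 71.1% were called, 69.4% as higher and 1.74% as lower in cKO retina. The 95% interval of the mir-10a change ran from 0.827-fold to 1.92-fold and contained both no change and 1.67-fold, the median of all tested precursors. That of mir-10b ran from 0.828-fold to 1.89-fold. The log2 fold changes of mir-10a and mir-10b were above those of 16.5% and 15.8% of tested precursors, which is a description and no test.

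The direction depended on the scaling. Scaling each library by its median ratio to the average library moved the median log2 fold change of all precursors from 0.74 to 0.013. On that scale mir-10a stood at -0.40 (SE 0.25; limma, adjusted p = 0.31) and mir-10b at -0.41 (SE 0.24; limma, adjusted p = 0.28). Under this median-of-ratios scaling 12.1% of tested precursors were called, 2.17% as higher and 9.98% as lower in cKO retina, and neither mir-10 precursor was among them.

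The library cKO 1 decided the call on the deposited values. Without it mir-10a rose by 0.66 on the log2 scale (limma adjusted p = 0.018) and mir-10b rose by 0.64 (limma adjusted p = 0.019), where 63.7% of 460 tested precursors rose. Over all alternatives the limma adjusted p ranged from 0.018 to 0.86 for mir-10a and from 0.019 to 0.87 for mir-10b. With cKO 1 left out and median-of-ratios scaling together, a combination chosen after seeing the data, mir-10a stood at -0.10 (limma adjusted p = 0.82). Without cKO 2 the log2 fold change of mir-10a was 0.053 (limma adjusted p = 0.86), and with library weights it was 0.55 (limma adjusted p = 0.053).

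**Figure D3:**
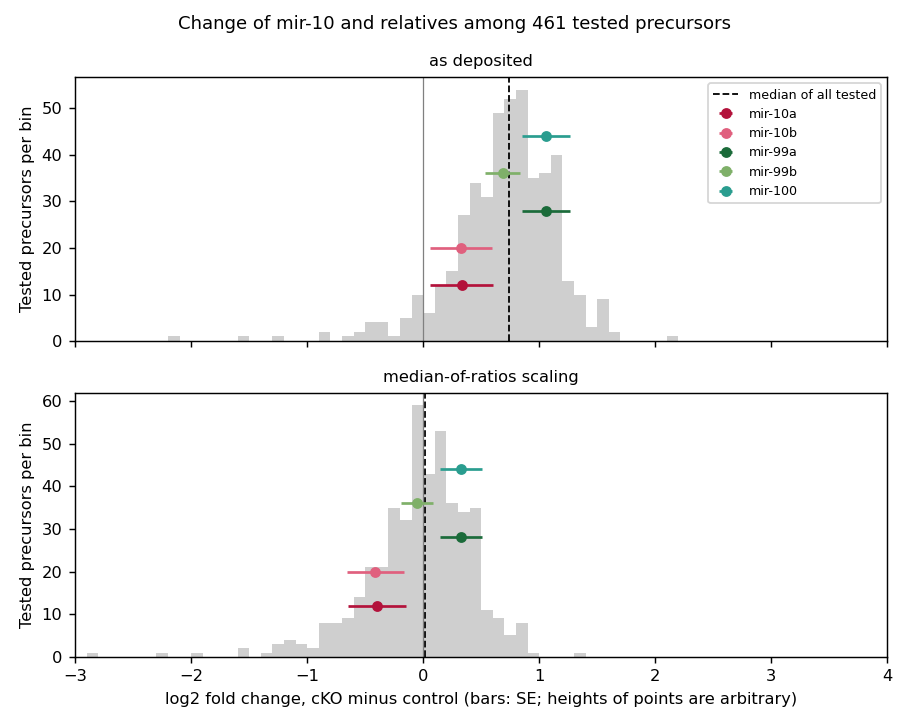
Histogram of log2 fold changes (cKO minus control) of the 461 tested precursors, as deposited (top) and with median-of-ratios scaling (bottom). Points with SE bars mark mir-10a, mir-10b, mir-99a, mir-99b and mir-100, and their heights are arbitrary. The dashed line is the median of all tested. The mir-10 precursors lie at 0.33 and 0.32 in the top panel and at -0.40 and -0.41 in the bottom panel.

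The relatives of miR-10 outside the Hox clusters were far more abundant and rose as deposited. The level of mir-99b was 26333 ± 4672 RPKM (SD, n = 3) over the control pools and 41943 ± 2971 RPKM (SD, n = 3) over the cKO pools. Over the 6 libraries its mean was 85.3 times that of mir-10b. For mir-99a the values were 3944, 6152 and 7175 RPKM in control 1 to 3 and 10949, 11156 and 12954 RPKM in cKO 1 to 3, so the groups did not overlap. In all 461 tested precursors the groups did not overlap in 73.5%. As deposited, 3 of the 3 relatives rose, as did 69.4% of all tested precursors, mir-99a by 1.06 on the log2 scale (SE 0.21; limma, adjusted p = 0.0016) and mir-99b by 0.69 (SE 0.15; limma, adjusted p = 0.0028). After median-of-ratios scaling none of the 3 passed, where 12.1% of all tested precursors did. They stood at 0.33, 0.32 and -0.050 for mir-99a, mir-100 and mir-99b. With their similar reads, mir-99a and mir-100 may not be separate measurements.

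A ratio within a library does not depend on its total. The RPKM of mir-10a was 4.75%, 3.52% and 3.41% of that of mir-99a in control 1 to 3, and 1.57%, 3.58% and 2.23% in cKO 1 to 3. The value of cKO 2 lay within the control range and those of cKO 1 and cKO 3 below it. The log2 ratio was lower by a mean of 0.73 in cKO retina (cKO minus control -0.73, exact two-sided permutation p = 0.3), so a difference between mir-10a and mir-99a in their response was not shown. This ratio was chosen after seeing the data.

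The cKO pools spread more in mir-10 than in most precursors. On the log2 scale the SD of mir-10a was 0.61 among the cKO pools and 0.19 among the control pools, against medians of 0.18 and 0.24 over all tested precursors. For the cKO pools 93.5% of tested precursors had a smaller SD. Among the 306 precursors whose mean reached 100 RPKM, only 5 had a higher log2 difference between cKO 2 and cKO 1 than the 1.21 of mir-10a. These are the pools in which mir-10a itself was highest and lowest, so this rank is a description and no test.

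The precursors whose log2 levels followed mir-10a most closely over the 6 libraries were mir-205, known from squamous and corneal epithelium (Pearson r = 0.965), and mir-20b and mir-17 of the proliferation-linked miR-17 seed family (r = 0.964 and 0.963). The same 3 came first for mir-10b, with r from 0.961 to 0.967. They were picked as the highest of all tested precursors over 6 libraries of 2 genotypes, and reads of related hairpins may be shared, so the values are a description. The level of mir-205 was 62.9, 100.3 and 91.6 RPKM in control 1 to 3 and 65.8, 283 and 193 RPKM in cKO 1 to 3. Like mir-10a it was high in cKO 2 and cKO 3, and in cKO 1 it lay among the controls.

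**Figure D4:**
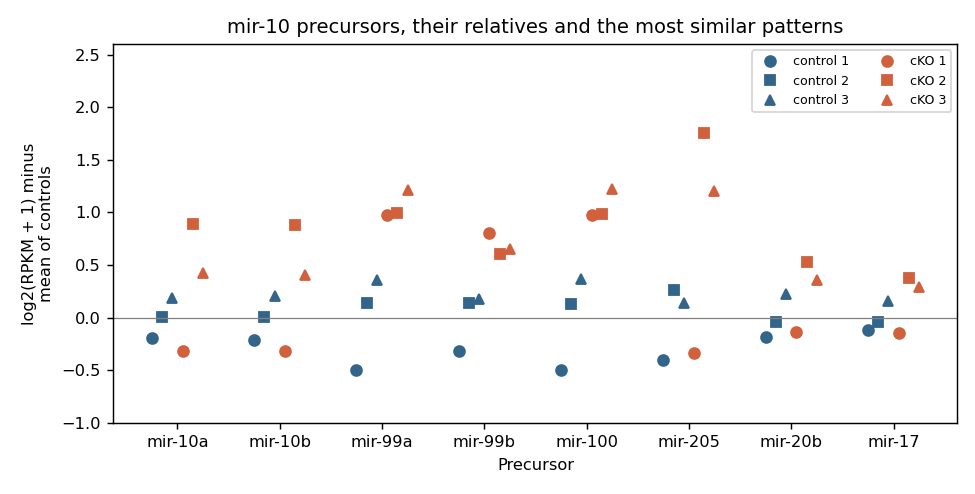
log2(RPKM + 1) minus the mean of the controls, per library, for the mir-10 precursors, their relatives and the 3 most similar precursors. In mir-10a, mir-10b, mir-205, mir-20b and mir-17 the point of cKO 1 (orange circle) lies with or below the controls, and in mir-99a, mir-99b and mir-100 all cKO points lie above the controls.

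Markers of other cells that a retinal pool can hold were read beside these values, with lists chosen with earlier results known. Of 6 tested vascular precursors 6 rose and none fell as deposited, where 69.4% of all tested precursors rose. Their median was 0.55 on the log2 scale against 0.74 over all tested. Their summed level ran from 19455 to 36089 RPKM over the control pools and from 42174 to 55883 RPKM over the cKO pools, with cKO 1 the lowest and cKO 2 the highest of the latter. The mural-cell mir-143, the most abundant of them, had the same order, at 21594, 36549 and 29913 RPKM in cKO 1 to 3. The endothelial mir-126 stood at 18854, 17256 and 17863 RPKM in the same pools, with cKO 1 the highest. Of the 8 tested precursors of epithelium, lens and cornea 1 rose and none fell (median 0.73), and their sum ran from 2933 to 54822 RPKM in control and from 25993 to 64245 RPKM in cKO retina. In cKO 1, cKO 2 and cKO 3 that sum was 25993, 61491 and 64245 RPKM, carried mostly by mir-184. Muscle precursors summed to 2111, 3288 and 2826 RPKM in cKO 1 to 3, and 3 of 6 tested rose (median 0.59). The 3 that rose are related hairpins with 2597, 2597 and 2491 reads over all libraries. In the vascular list 3 related hairpins had 1287, 1284 and 1284 reads. Reads of such hairpins may be shared, so their calls may not be separate measurements, and sums may count a read more than once. Blood and microglial precursors summed to 30409, 35733 and 36734 RPKM in cKO 1 to 3, and 4 of 6 tested rose (median 0.81). In these 4 lists the sum was lowest in cKO 1 among the cKO pools, which did not hold for every member, as mir-126 shows. The retina-abundant sum below was also lowest there, at 15227230 RPKM against 15261035 and 15421524 RPKM in cKO 2 and 3. From control 1 to 3 the vascular sum rose as mir-10 did, at 19455, 27038 and 36089 RPKM. The sums of the other marker lists did not rise steadily, with 10624, 2933 and 54822 RPKM for epithelium, 1858, 1291 and 2176 RPKM for muscle, and 18668, 21931 and 19433 RPKM for blood and microglia. After median-of-ratios scaling the medians were -0.18 for the vascular, 0.0046 for the epithelial, -0.13 for the muscle and 0.076 for the blood and microglial list. Of their members mir-126 alone passed, as higher (log2 0.63; limma, adjusted p = 0.020). On that scale 2.17% of all tested precursors passed as higher and 9.98% as lower. No defining marker of these lists was at 0 in all libraries, and their part in the mir-10 values was not tested. Of the 3 tested precursors of oligodendrocytes and optic nerve 1 rose, mir-338, and their sum was nearly level among the cKO pools at 2048 to 2128 RPKM. Their median was 0.17 on the log2 scale as deposited and -0.55 after median-of-ratios scaling.

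Against a list of retina-abundant miRNAs, the Hox-cluster precursors had low levels. That list was chosen for abundance, with earlier results known, so the gap is a description and no test. All 15 retina-abundant precursors were detected, from 10181 RPKM for mir-96 to 5660227 RPKM for mir-182, the photoreceptor and sensory miRNA that ranked first, and mir-182 averaged 14139 times the level of mir-10b. Of these 15, 9 rose and 2 fell as deposited, where 69.4% of all tested precursors rose and 1.74% fell. After median-of-ratios scaling none of the 15 rose and 6 fell (limma, adjusted p below 0.05), namely mir-182, mir-183, mir-96 and the 3 copies of mir-124. On that scale 2.17% of all tested precursors rose and 9.98% fell. Copies of 1 miRNA in this list had nearly equal reads, at 287865, 288094 and 287751 for mir-124. They may not be separate measurements.

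Other negative markers were not uniformly absent. Of 17 precursors of liver, heart, pancreas and embryonic stem cells 10 were at 0 in all libraries, among them mir-302a to mir-302d and mir-367 of stem cells. The liver marker mir-122 averaged 3.00 RPKM. Of the heart markers mir-208a averaged 0.656 RPKM, while mir-208b averaged 14.4 RPKM and was detected in every library. In contrast mir-217 and mir-216a, known from pancreas, averaged 229 and 155 RPKM, against 251 RPKM for mir-10a. As deposited 4 of the 4 tested markers of other tissues rose, where 69.4% of all tested precursors did, mir-217 by 0.97 on the log2 scale (SE 0.16; limma, adjusted p = 9.2e-04). After median-of-ratios scaling none of the 4 passed, where 12.1% of all tested precursors did, and mir-217 stood at 0.24.

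**Figure D5:**
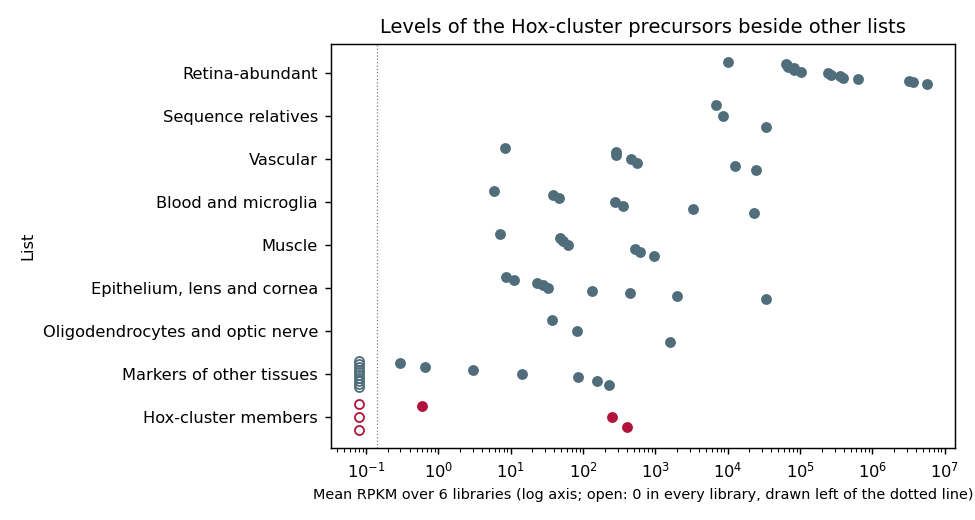
Mean RPKM over the 6 libraries (log axis) for each precursor of the Hox-cluster group (red) and of the other lists (grey-blue), with open circles left of the dotted line for precursors at 0 in every library. The Hox-cluster group shows 2 points at 251 and 400.3 RPKM, mir-615 below 1 RPKM and 3 open circles, and the lowest retina-abundant precursor lies at 10181 RPKM.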

How the data were processed

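The authors deposited RPKM values of 855 miRNA precursors, 1 column per library (1 µg of total RNA, 11 rounds of PCR, 50-base reads, per the labels' protocols). Per the submitters' processing notes Bowtie and mm9 were used. Not given in the sources used here are the Bowtie version, mismatch setting, handling of multiple matches and annotation. The annotation at hand is GRCm38, so no coordinates are printed.

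RPKM times precursor length gave whole reads for all of 4986 values (831 lengths by name, tolerance 0.01 reads), and with them library totals. Whether these totals hold reads at precursors only was not tested. The main test was limma (version 3.58.1, R 4.3.3), with a trended eBayes fit to log2(RPKM + 1) of the 461 precursors whose mean reached 10 RPKM, two-sided, Benjamini-Hochberg over all 461, threshold 0.05. This scale understates changes of low precursors. Exact permutation tests and Poisson intervals used scipy 1.17.1.

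In 453 simulated precursors the fit recovered 50.7% of 1.5-fold, 96.9% of 2-fold and 98.4% of 4-fold changes for this comparison. The simulation gave every precursor the same spread beyond counting error and placed changes in both directions. The within-group SD of mir-10a was 0.45 on the log2 scale, above that of 86.1% of tested precursors. These shares therefore do not carry over to mir-10. Members and lists were chosen with earlier results of these data known. Named are all members, the miR-10 relatives, up to 2 abundant members of each list and the 3 most correlated precursors. Outside this rule, mir-96, mir-183, mir-124, mir-122, mir-208a, mir-208b, mir-302a to mir-302d and mir-367 were named after their values were seen. Alternatives covered pseudocount, filter, scaling, variance model, library weights, copies, voom on recovered reads, a replicate block and each library left out.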

Additional observations from a re-analysis of the deposited data

How the results depend on the processing

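Scaling turned the sign of the mir-10 changes and kept them below the threshold. The log2 fold changes of mir-10a and mir-10b were -0.40 and -0.41 with median-of-ratios scaling, -0.46 and -0.51 with quantile normalization, -0.18 and -0.19 with totals without the 10 most abundant precursors, -0.29 and -0.30 with totals without mir-182, and -0.10 and -0.12 with median-of-ratios scaling and cKO 1 left out. The cause was not tested. With each library left out in turn they ran from 0.053 to 0.66 and from 0.046 to 0.64, and passed only without cKO 1 (0.66 and 0.64). In these settings, in the same order, 10, 12, 57, 20 and 5 precursors rose (320 as deposited) and 46, 29, 29, 36 and 35 fell (8 as deposited). Library weights gave 14 that fell, and moved mir-10a to 0.55 and mir-10b to 0.53 (limma adjusted p = 0.053 and 0.055). Leaving out a library gave 252 to 322 that rose and 4 to 12 that fell. The mir-10b to mir-10a log2 ratio ran from -0.018 to -0.0030 without a library. Recovered reads and the replicate block leave this difference unchanged by construction. Its sign, kept in all 8 alternatives, is therefore no sign of a genotype effect. Both pseudocounts, both filters, the trend, copies and voom changed no mir-10 call.

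With a replicate block mir-10a stood at 0.33 and mir-10b at 0.32 (limma adjusted p = 0.15 each), with 338 that rose and 10 that fell. Deviations of same-numbered libraries correlated at 0.19, 0.26 and 0.0093. For control 1 the other cKO libraries gave -0.21 and -0.052, and for control 2 they gave 0.048 and -0.22. In contrast, control 3 correlated no better with cKO 3 than with cKO 1 (0.015). The labels state no pairing or batch, and these values do not settle whether same-numbered libraries share one. At 1 read in 2 libraries, depth limits mir-615, and no fit was made for the mir-196 precursors.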
